A study of Mus musculus with 83 samples.

Results

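The comparison covered the first 2 days of brown adipogenesis in culture, from day 0, when the confluent preadipocytes were induced, to day 2, when they were immature adipocytes. Its members were all genes of the deposited expression tables whose larger value at the 2 times was at least 1 FPKM (fragments mapped to a gene, scaled for transcript length and for the size of the library), which held for 10717 of the 11144 genes listed (96.2%). The members were chosen by level alone, without regard to how they differed. The series, of 83 samples, mostly profiled chromatin in adipogenesis; the RNA libraries used here are those of culture days -3, 0, 2 and 7 and of interscapular brown adipose tissue of C57BL/6J mice at 16 weeks. All culture libraries came from Pparg-flox/flox brown preadipocytes of C57BL/6J background, taken from the interscapular brown fat of newborns and made immortal by a retrovirus for SV40 large T antigen, so the viral protein and the floxed alleles were common to both days. No label gives a Cre treatment for these libraries. At day 0 the cells received 0.02 µM insulin, 1 nM T3 (thyroid hormone), 0.5 mM IBMX (a phosphodiesterase inhibitor that lets cAMP build up), 2 µg/ml dexamethasone (a synthetic glucocorticoid) and 0.125 mM indomethacin (a cyclooxygenase inhibitor). Insulin and T3 alone were given from day 2 on, and whether the day 2 RNA was taken before or after that change of medium is not known. Each time had 1 library, so every difference below is between 2 libraries, has no replicate check and carries no p-value; sequencing depth is unknown.

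An inducing medium of this kind acts through several receptors at once. Dexamethasone binds the glucocorticoid receptor, IBMX keeps cAMP from being broken down so that protein kinase A stays active, and insulin at this stage signals through its own receptor and that of IGF-1. Together they raise the C/EBP factors and then PPARG, which switch on the genes of lipid uptake and storage. Committed fibroblast-like cells round up in this period, take apart much of their actin skeleton and exchange a fibronectin-rich matrix for a basement membrane.

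Most genes did not differ by 2-fold. Genes were called higher or lower at day 2 from a difference of at least 1 in log2(FPKM + 1). By this rule of size 662 genes (6.18%) were higher, 1146 (10.7%) were lower and 8909 (83.1%) lay within 2-fold, so that 16.9% differed either way, and the median difference over all compared genes was -0.01. These shares are the background for every count below. Lower genes were the more numerous, but the large differences were upwards: 89 genes were at least 8-fold higher and 23 at least 8-fold lower, and at 32-fold the counts were 14 and 2. The higher genes started low and ended at middling levels, with a median of 5.88 FPKM at day 0 and 23.5 at day 2, and 151 of them (22.8%) were below 1 FPKM at day 0. The lower genes went from a median of 12.3 FPKM to 3.28, and 283 (24.7%) were below 1 FPKM at day 2. Together the higher genes made up 2.47% of all FPKM at day 0 and 11.9% at day 2, and the lower genes 16.4% and 5.22%. The single genes with the largest gains were Fabp4, the fatty acid carrier of adipocytes, and Lpl, lipoprotein lipase, which together gave 10.3% of the summed FPKM gain, and the 12 largest gains gave 18.3% of it.

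The edges of these rules are thin. Cav1, a coat protein of membrane caveolae, lay just outside the lower count at 292 and 145 FPKM, and Cuedc1 just inside it at 21.1 and 10.1. Acaa2, a mitochondrial thiolase, lay just outside the higher count at 38.98 and 78.9 FPKM, and Pag1 just inside it at 2.29 and 5.59. At the level rule, Lif was just too low to be compared, with a larger value of 0.997 FPKM, and Gcnt1 was just included at 1.003.

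**Figure D1:**
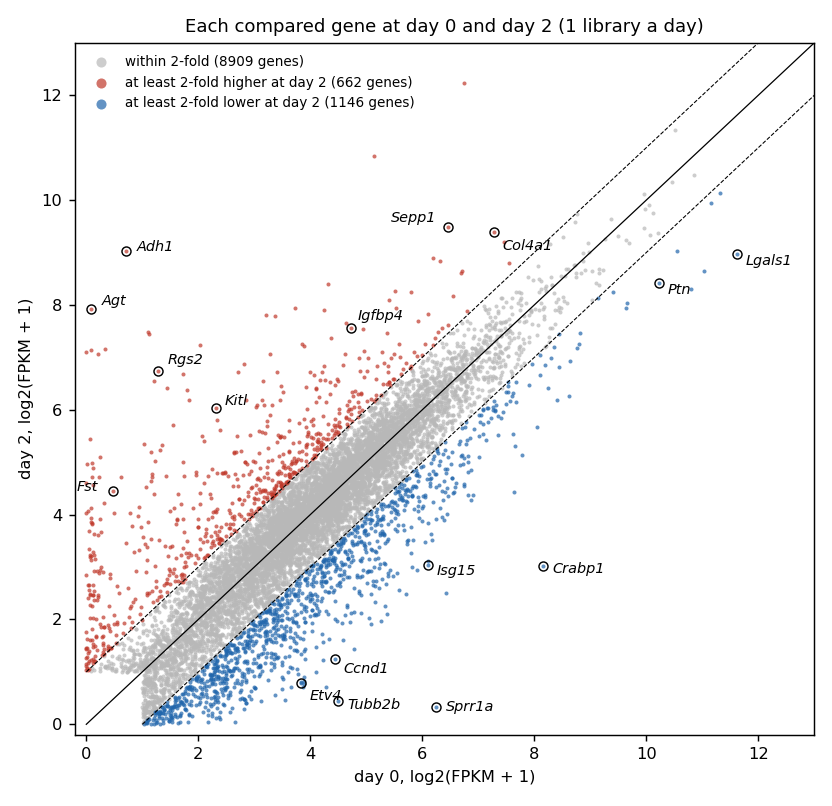
Each point is 1 of the 10717 compared genes, with log2(FPKM + 1) at day 0 on the horizontal axis and at day 2 on the vertical axis; dashed lines mark 2-fold, and circles mark named genes. The points above the upper line (662 genes, red) reach farther from the diagonal than the more numerous points below the lower line (1146 genes, blue).

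The stage labels were checked against marker genes. All 9 adipocyte markers compared were higher at day 2, with a median difference of 5.38, and their summed level went from 144 to 7174 FPKM. Of 7 preadipocyte markers compared, 4 were lower and 2 higher. Of 7 brown adipocyte markers in the tables only 2 were high enough to compare: Ebf2, a transcription factor of brown preadipocytes, was higher, at 5.32 and 26.2 FPKM, and Cox7a1, a respiratory subunit, lay within 2-fold at 1.96 and 1.59. Ucp1, the uncoupling protein, had a listed value of 0 at day 0 and measured 0.0357 FPKM at day 2, and Cidea was listed at 0 on both. Markers of other cell types were, where they differed, lower at day 2. Those of pericytes and smooth muscle had the highest sum, 118 FPKM at day 0 and 73.1 at day 2 over 5 compared genes, most of it from Pdgfrb. Leukocyte markers summed to 10.8 FPKM at day 0 and 5.93 at day 2 over 5 compared genes, endothelial markers to 18.9 and 14.7 over 3, and Schwann cell and nerve markers to 17.6 and 1.79 over 3. In bulk RNA, fewer cells of a type and less RNA per cell cannot be told apart. A marker missing from the tables cannot be taken as low.

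Among the 47 pathway and class lists, the highest share of higher genes was in that of the glucocorticoid receptor and its common targets. Of 23 compared genes on it, 15 were higher at day 2 and none was lower, with a median difference of 1.43, while the receptor itself, Nr3c1, stood at 21.7 FPKM on day 0 and 27.7 on day 2. Fam107a, an actin-binding stress-response gene, was at 0.0637 and 14.3 FPKM. Hsd11b1, the enzyme that regenerates active glucocorticoid inside cells, was at 0.0340 and 11.8 FPKM, and Tsc22d3 (GILZ), an anti-inflammatory leucine zipper protein, at 9.98 and 71.6. Fkbp5, a chaperone that lowers the receptor's affinity for its hormone, was at 23.6 and 133 FPKM. The metallothioneins Mt1 and Mt2, which bind zinc, were at 187 and 443 and at 45.01 and 246 FPKM. Several of these were lower again at day 7: Fam107a was at 0.829 FPKM there, Fkbp5 at 37.9 and Tsc22d3 at 25.9. Others were higher still at day 7: Mt2 was at 1052 FPKM, Hsd11b1 at 29.1, and Per1, a clock gene, at 35.6 after 26.8 at day 2. Dexamethasone, IBMX and indomethacin had all been left out of the medium by then. Their parts and that of time cannot be told apart. Dusp1, a phosphatase often induced by glucocorticoids, was among the 8 within 2-fold, at 7.36 and 6.85 FPKM. No promoter window of the compared genes held the full palindrome of the receptor, AGAACA and TGTTCT with any 3 bases between them. The windows are the 300 bases around the start that RefSeq's table for GRCm38.p6 gives, and 0.00913% of all windows in that table held the palindrome. With letters this rare none was likely to be found, so the search says nothing of receptor sites at these genes. Bases farther from the start were not searched.

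Genes of cAMP signalling differed in both directions. Of 28 compared, 7 were higher and 5 lower at day 2, with a median difference of 0.06. Those higher were mostly parts of the pathway itself. Rgs2, which shortens signalling through G proteins, stood at 1.44 FPKM on day 0 and 105 on day 2. Pde3b, the phosphodiesterase through which insulin lowers cAMP in adipocytes, was at 10.4 and 79.5 FPKM, and Prkar2b, the main regulatory subunit of protein kinase A in fat, at 16.1 and 84.00. Adrb3, the beta-adrenergic receptor most typical of adipocytes, was at 0.0893 and 5.303 FPKM. Adcy6, an adenylyl cyclase, was at 34.99 and 94.8 FPKM. Those lower included Nr4a1 and Nr4a2, orphan nuclear receptors that cAMP switches on within the hour, at 9.12 and 2.87 and at 6.38 and 2.23 FPKM. Crem, another immediate target of cAMP, was at 5.13 and 5.995 FPKM, and Sik1, a kinase of the same kind, at 4.95 and 7.76, both within 2-fold. Akap12, an anchor for protein kinase A, was at 90.1 and 30.02 FPKM.

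Several steps of the insulin pathway were higher. Of 31 compared genes, 9 were higher and 2 lower, with a median of 0.10. Insr, the insulin receptor, stood at 8.37 FPKM on day 0 and 26.9 on day 2, and Irs2, the adaptor below it, at 8.39 and 54.3, while Irs1 was at 14.8 and 13.9 and Igf1r, the IGF-1 receptor, at 14.1 and 13.7. Pik3r1, the regulatory subunit of PI3 kinase, was at 16.1 and 82.8 FPKM, and Foxo1, the transcription factor that insulin keeps out of the nucleus, at 3.94 and 15.9. The binding proteins that hold IGFs outside the cell split by member. Igfbp4 was at 25.4 and 189 FPKM, Igfbp3 at 0.721 and 15.3, Igfbp5 at 1.91 and 2.04, and Igfbp6 at 43.5 and 6.08. Igfbp2, outside the list, was at 0.160 and 133 FPKM, the largest difference of these. Igf1 and Igf2, the growth factors themselves, were at 13.4 and 28.8 and at 2.02 and 13.1 FPKM. Akt1 and Akt2, the central kinases, lay within 2-fold.

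Thyroid hormone and prostaglandin genes that differed were more often lower than higher at day 2. Of 10 thyroid hormone receptor and target genes compared, 1 was higher and 2 were lower. The receptor Thra was at 62.6 and 60.8 FPKM and the transporter Slc16a10 at 3.38 and 12.3. Of 17 prostaglandin genes, 5 were lower and 1 higher, with a median of -0.63. Ptgs2, the inducible cyclooxygenase that indomethacin inhibits, had been at 89.6 FPKM in the proliferating cells of day -3 and was at 6.04 at day 0 and 0.873 at day 2. Ptgs1, the constitutive form, was at 36.4 and 21.3 FPKM, within 2-fold. Ptgis, which makes prostacyclin, was at 30.6 and 9.18 FPKM.

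**Figure D2:**
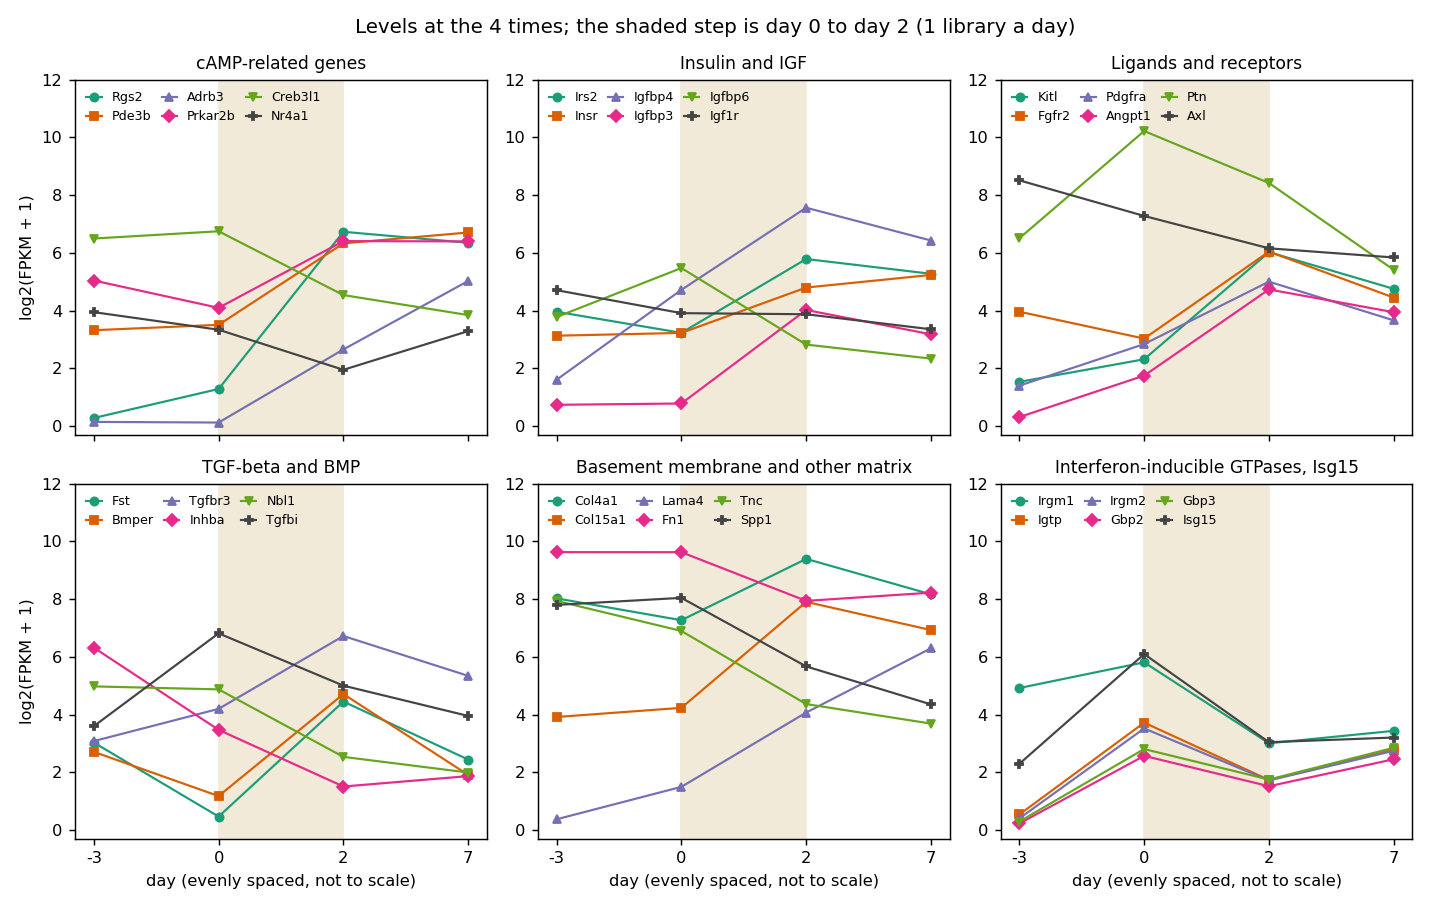
Levels of named genes, 6 to a panel, at days -3, 0, 2 and 7, as log2(FPKM + 1) on the vertical axis; days are evenly spaced, not to scale, each point is 1 library, and the shaded band is the step from day 0 to day 2. Rgs2, Irs2, Kitl, Fst and Col15a1 are higher at its right edge than at its left, and Igfbp6, Tnc and the interferon-inducible genes are lower.

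Ligands and receptors of growth factors went both ways. Of 37 genes of the FGF, EGF, PDGF, VEGF and related families, 9 were higher and 7 lower, with a median of -0.19. Kitl, the ligand of the KIT receptor, stood at 3.98 FPKM on day 0 and 64.1 on day 2, and Gas6, a ligand of the TAM receptors, at 1.31 and 19.96. Its receptor gene Axl was in the other direction, at 154 and 70.5 FPKM. Fgfr2 was at 7.18 and 64.99 FPKM, its signalling-deficient relative Fgfrl1 at 7.84 and 71.8, and Fgf10, a ligand of Fgfr2 needed for fat pads to form, at 0.0360 and 5.29. Fgfr1 lay within 2-fold at 60.9 and 111 FPKM. Angpt1, which steadies blood vessels, was at 2.36 and 25.6 FPKM. Pdgfra, a receptor that marks adipose progenitors, was higher in the immature adipocytes, at 6.17 and 31.1 FPKM, while Pdgfrb was at 68.6 and 45.96. Ptn, the heparin-binding growth factor pleiotrophin, was at 1194 and 342 FPKM after 89.97 at day -3.

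In the TGF-beta and BMP pathway 11 of 34 compared genes were lower and 4 higher, with a median of -0.45. The 4 higher genes all encode proteins that bind these ligands outside the cell. Fst (follistatin), which traps activin, stood at 0.385 FPKM on day 0 and 20.9 on day 2, the BMP-binding Bmper at 1.27 and 25.3, Chrdl1 at 0.732 and 3.79, and the coreceptor Tgfbr3 at 17.4 and 105. Among the lower genes were the ligands Tgfb1, at 36.1 and 14.1 FPKM, and Inhba (activin A), at 10.1 and 1.85, and the target Tgfbi, at 112 and 31.1. Not every extracellular antagonist was higher: Nbl1 was at 28.4 and 4.81 FPKM. Outside the list, the inhibitory Smad7, a feedback target of TGF-beta, was at 4.65 and 1.68 FPKM. Of the BMP targets, Id1 was at 4.53 and 27.3 FPKM and Id2 at 3.66 and 11.01, both higher at day 2, and Id3 lay within 2-fold at 29.5 and 18.6.

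In the Wnt pathway 5 of 29 compared genes were higher and 5 lower. Its receptors differed in direction: Fzd4 stood at 3.19 FPKM on day 0 and 44.03 on day 2 and the coreceptor Lrp5 at 28.8 and 78.9, while Fzd6 was at 21.3 and 2.94 and Fzd2 at 49.6 and 18.3. Lgr4, which enhances Wnt signalling on binding R-spondins, was at 7.46 and 35.01 FPKM. Of the nuclear partners of beta-catenin, Tcf7l1, mostly a repressor, was at 28.1 and 60.9 FPKM and Tcf7 at 5.05 and 0.913. In the Notch list 1 of 12 was higher, the ligand Jag1, at 2.24 and 17.3 FPKM. In the Hedgehog list 1 of 13 was higher, the coreceptor Boc, at 2.29 and 14.1 FPKM, and 1 was lower, Hhat, the acyltransferase that matures the ligand, at 6.34 and 1.08.

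Of 28 feedback genes of the MAP kinase cascade 9 were lower and 6 higher. Etv4, an ETS factor downstream of FGF signalling, stood at 13.2 FPKM on day 0 and 0.720 on day 2, and Dusp3, a phosphatase of MAP kinases, was at 14.04 and 2.86. The immediate-early factors Egr1 and Egr3, outside the list, were at 85.8 and 28.1 and at 3.500 and 0.125 FPKM. In the other direction, Spry4, which damps receptor tyrosine kinase signalling, was at 4.44 and 26.6 FPKM, and Errfi1, an inhibitor of the EGF receptor and also a glucocorticoid target, at 59.8 and 205.

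Of 46 axon guidance genes, which also steer cell shape and movement outside the nervous system, 14 were lower and 4 higher, with a median of -0.72. Dpysl3, a cytoskeletal partner of semaphorin signalling, had a difference of -3.92 on the log2 scale, at 85.04 and 4.698 FPKM. Sema3a, Sema3d and Sema3e, neighbours on chromosome 5 among the genes listed, were all lower. Sema3a was at 14.1 and 4.295 FPKM and Sema3e at 6.51 and 1.84. The receptor Plxnd1, to which SEMA3E binds, was higher, at 10.6 and 43.5 FPKM, and so was the secreted Slit3, at 7.78 and 46.8. The ephrin receptor Epha2 was at 7.83 and 1.03 FPKM.

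G protein-coupled receptors and their regulators had a high share of differing genes: 15 of 41 were higher and 10 lower. Mc5r and Mc2r, receptors for melanocortins and ACTH, measured 0.0895 and 0.0490 FPKM at day 0 and 22.8 and 3.84 at day 2, and Mrap, the accessory protein that brings MC2R to the surface and was not on the list, was at 0.0526 and 8.14. Adcyap1r1, the receptor for the neuropeptide PACAP and also not on the list, was at 37.8 and 137 FPKM. Ramp2, the partner that turns a calcitonin-type receptor into one for adrenomedullin, was at 1.67 and 25.8 FPKM. Among the lower genes, the adenosine receptor Adora2b was at 13.3 and 0.759 FPKM, and the thrombin receptor F2r at 87.3 and 33.2. The adenosine receptor Adora1, which holds back lipolysis in adipocytes, went the other way, at 0.0323 and 1.31 FPKM.

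Of 15 renin-angiotensin and natriuretic peptide genes compared, 7 were higher and none lower, with a median of 0.84. Agt, which encodes the precursor of the angiotensins, had the second largest difference upwards of the comparison, 7.85 on the log2 scale, after 8.32 for Adh1. The angiotensin receptors Agtr2 and Agtr1a measured 0.196 and 0.720 FPKM at day 0 and 11.7 and 3.67 at day 2, and Lnpep, an aminopeptidase that binds angiotensin IV, was at 16.4 and 36.7. Ren1, the gene of renin, was at 0.357 and 1.73 FPKM. At day 7 Agtr2 was back at 0.656 FPKM and Ren1 at 0.0503. Of the natriuretic peptide receptors, Npr1, which signals through cGMP, was at 2.04 and 6.06 FPKM, and Npr3, which clears the peptides, at 2.77 and 16.3.

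**Figure D3:**
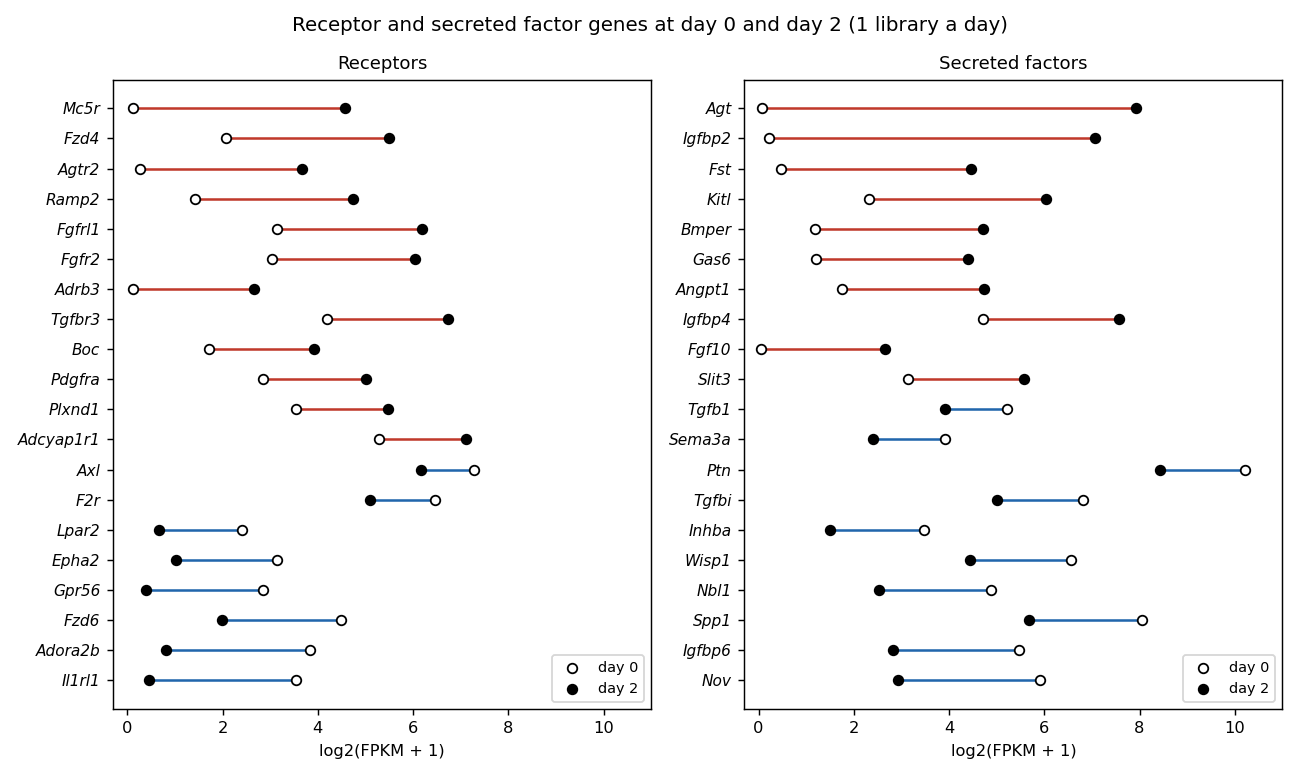
Levels of 20 receptor genes, with Ramp2 as a receptor partner, and 20 secreted factor genes at day 0 (open circles) and day 2 (filled circles), as log2(FPKM + 1) on the horizontal axis, ordered by difference; 1 library a day, red lines for genes higher at day 2 and blue for genes lower. Agt covers the longest distance, and Ptn stays the most abundant of the lower genes shown.

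Among transcription factors most genes lay within 2-fold, and those that differed were spread over families. Of 31 SOX, GATA, RUNX, TEAD and SMAD factors, many of which hold cells in a fibroblast or skeletal fate, 8 were lower and none higher, with a median of -0.47. Runx1 and Runx2, the latter the master factor of bone, were at 5.32 and 1.103 and at 9.46 and 3.57 FPKM, Tead2, a partner of YAP, at 84.1 and 28.1, and Sox4 at 15.3 and 4.5. Of 30 homeobox genes outside the Hox clusters 5 were lower and 2 higher, among the latter Lhx8, known as a mark of brown fat precursors, at 15.1 and 54.2 FPKM. Of 32 basic helix-loop-helix and Id genes 5 were higher and 5 lower. Mlxipl (ChREBP), the glucose-responsive factor of lipogenesis, stood at 0.111 FPKM on day 0 and 7.88 on day 2, and Epas1 (HIF-2 alpha) at 1.13 and 7.81. The sterol regulators parted: Srebf1, which drives fatty acid synthesis, was at 73.5 and 164 FPKM, and Srebf2, which drives cholesterol synthesis, at 129.5 and 53.5. Of the forkhead factors 2 of 18 were higher, Foxo1 and Foxc1, the latter at 4.35 and 26.8 FPKM. Nr1h3, the oxysterol receptor LXR alpha, was at 0.490 and 4.697 FPKM, and Rarg, a retinoic acid receptor, at 46.5 and 12.9. The zinc finger proteins named Zfp, 286 compared genes, differed little, with 3 higher and 10 lower; Zfp467 was at 11.4 and 1.77 FPKM.

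Retinoid-handling genes were among those with the largest differences. Of 36 steroid and retinoid genes, 10 were higher and 4 lower, with a median of 0.56. Genes for enzymes that oxidise retinol and retinal were among the higher ones. Adh1 stood at 0.635 FPKM on day 0 and 523 on day 2, and Aldh1a1 at 1.11 and 22.1. Aldh1a7, a close relative of Aldh1a1 in sequence, was at 1.16 and 173 FPKM. These relatives are so alike that reads may have been split between them. Retsat, retinol saturase, was at 8.94 and 31.9 FPKM. In the other direction, the binding protein Crabp1 was at 283 and 7.11 FPKM, and Stra6, the uptake receptor for retinol-binding protein, at 1.798 and 0.0690. At day 7 Adh1 was at 75.8 FPKM, less than at day 2, and Rbp4, the retinol carrier of plasma, at 148 after 5.198.

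Of 50 amino acid metabolism genes 14 were higher and 4 lower, with a median of 0.22. The enzymes that break down branched-chain amino acids were represented at several steps: Bcat2, the mitochondrial aminotransferase, stood at 21.6 FPKM on day 0 and 45.4 on day 2, Hibadh at 14.4 and 44.2, and Mut, methylmalonyl-CoA mutase, at 9.65 and 23.5. Aldh6a1 of the same route, not on this list, was at 8.39 and 50.9 FPKM. Bcat1, the cytosolic form, went the other way, at 49.1 and 12.98 FPKM. Genes of cysteine use on the list were also higher: Cth, which makes cysteine, was at 11.3 and 36.3 FPKM, and Cdo1 and Csad, which turn it into taurine, at 1.49 and 36.6 and at 24.02 and 56.8. Among genes outside the list, the transporters Slc1a5 for glutamine and Slc43a1 for branched-chain amino acids were at 72.4 and 478 and at 4.05 and 26.9 FPKM. Over the whole Slc family 20 of 161 genes were higher and 18 lower, with a median of 0.02.

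Of 35 nucleotide and pentose phosphate genes 5 were higher and none lower, with a median of 0.40. Impdh1, the first step to GTP, stood at 28.3 FPKM on day 0 and 126 on day 2, Xdh, which makes uric acid, at 1.94 and 50.98, and Taldo1, transaldolase, at 38.3 and 88.6. Of 38 peroxisome genes 9 were higher and 2 lower, with a median of 0.42. Cat (catalase) was at 44.6 and 307 FPKM and Pex11a, which multiplies peroxisomes, at 6.96 and 17.6. Phyh, which breaks down phytanic acid, was lower, at 12.97 and 5.82 FPKM.

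Detoxifying genes differed in equal numbers each way, with 10 of 48 higher and 10 lower. Mgst1 and Mgst3, membrane-bound glutathione transferases, were at 18.9 and 335 and at 9.004 and 66.9 FPKM, and Ephx2, soluble epoxide hydrolase, at 1.72 and 84.4. The cytosolic transferases Gsta4 and Gstt1 were lower, at 18.3 and 0.638 and at 11.1 and 0.993 FPKM, as were the NRF2 target Nqo1, at 18.5 and 3.47, and the glutathione peroxidase Gpx1, at 111 and 33.6. Of 32 iron and heme genes 7 were higher and 1 lower. Steap4, a ferrireductase of adipocytes, was at 0.0950 and 11.4 FPKM, and Cp (ceruloplasmin), which oxidises iron for export, at 7.22 and 67.4. Tfrc, the transferrin receptor, was at 18.9 and 42.5 FPKM and Alas1, the first step of heme synthesis, at 18.4 and 42.4, while the exporter ferroportin, Slc40a1, was the lower one, at 8.15 and 2.399.

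Lipid genes outside triglyceride storage differed in both directions. Of 54 phospholipid and sphingolipid genes, 7 were higher and 9 lower. Lpin1, a phosphatidate phosphatase on the way to triglyceride, stood at 5.44 FPKM on day 0 and 44.03 on day 2, and Ppap2b, which removes lysophosphatidic acid at the surface, at 13.4 and 151. Pcyt1b, a lesser isoform of the enzyme that limits phosphatidylcholine synthesis, was lower, at 6.65 and 0.397 FPKM. Of 25 apolipoprotein and lipoprotein receptor genes, 8 were higher and 5 lower. Abca1, the cholesterol exporter and an LXR target, was at 1.22 and 24.1 FPKM, and Apoe at 2.06 and 14.1. Vldlr, the receptor for very low density lipoprotein, was at 11.8 and 31.6 FPKM.

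**Figure D4:**
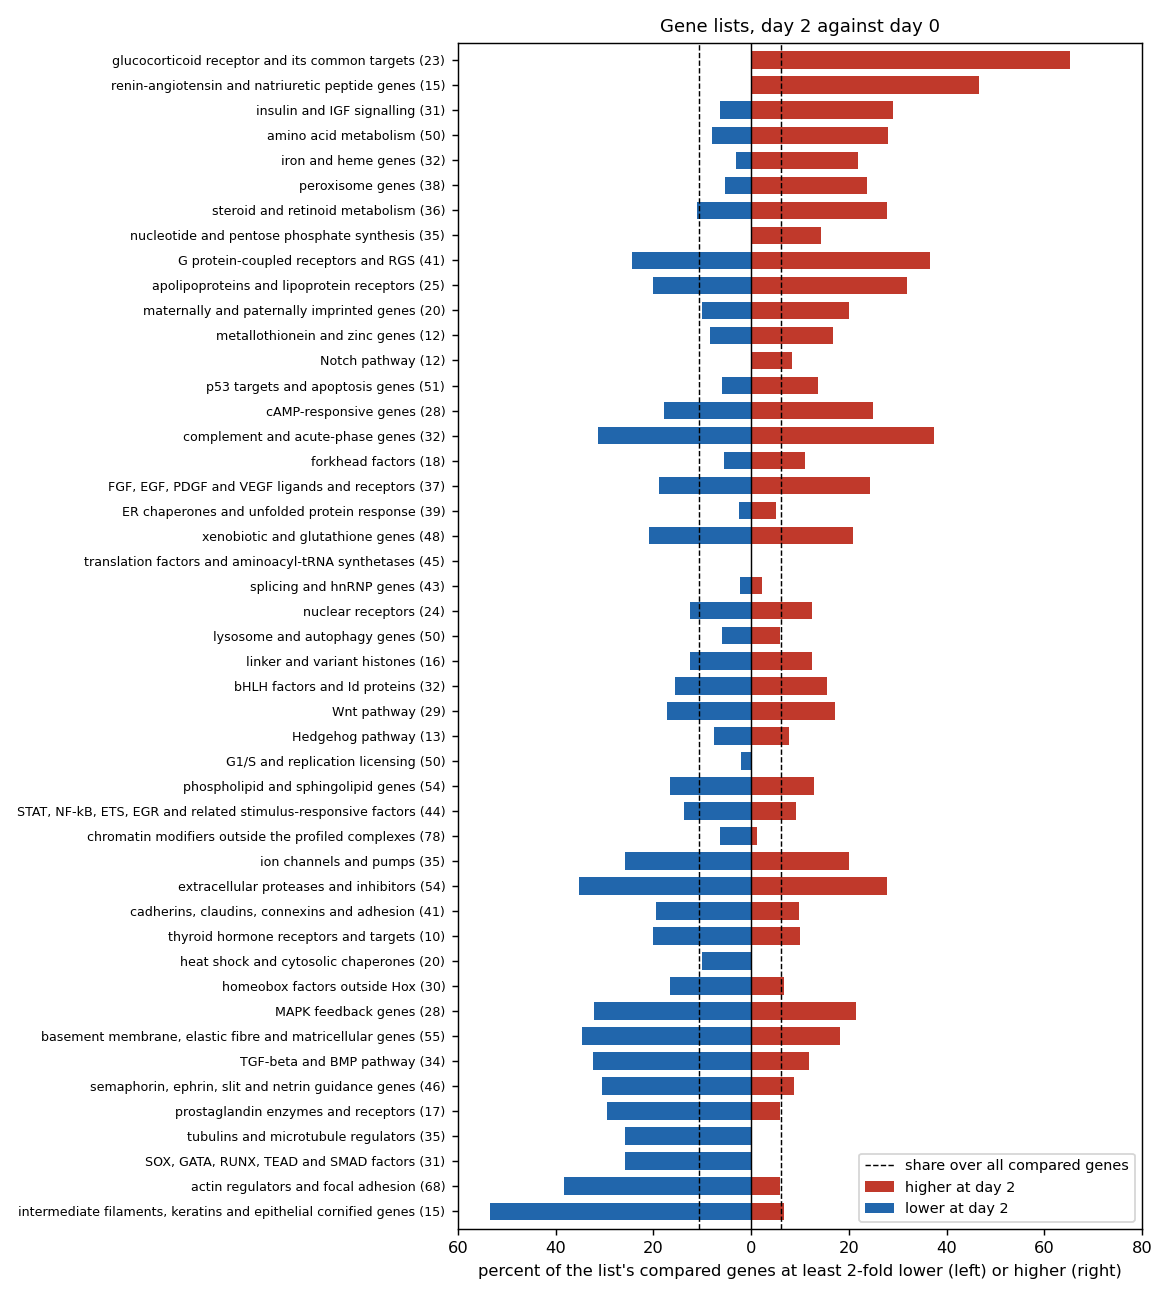
Share of each list's compared genes at least 2-fold higher (red, to the right) or lower (blue, to the left) at day 2, as a percent on the horizontal axis, for 47 gene lists with the number compared in parentheses; dashed lines mark the shares over all compared genes, 6.18% higher and 10.7% lower, and lists are ordered by the difference of the 2 shares. The glucocorticoid list is at the top and the intermediate filament and actin lists at the bottom, and the list of translation factors and aminoacyl-tRNA synthetases has no bar.

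Matrix genes differed in both directions. Of 55 genes for basement membrane, elastic fibre and matricellular proteins 10 were higher and 19 lower, with a median of -0.49. The chains of collagen IV, Col4a1 and Col4a2, measured 154 and 103 FPKM at day 0 and 673 and 402 at day 2. Their starts lie 21 bases apart on opposite strands in RefSeq's annotation of GRCm38.p6. The laminin chains Lama4, Lamb1 and Lamc1 measured 1.83, 92.7 and 67.7 FPKM at day 0 and 15.8, 286 and 226 at day 2. Nid2 (nidogen 2), which ties laminin to collagen IV, was at 76.5 and 179 FPKM, and Col15a1, a collagen at the outer face of basement membranes, at 17.9 and 239. Lama5 was an exception, at 25.97 and 9.64 FPKM. Fibronectin, Fn1, was at 791 and 245 FPKM, the matricellular Spp1 (osteopontin), Wisp1 and Nov at 264 and 49.97, 93.3 and 20.7, and 59.1 and 6.66, and fibrillin 1, Fbn1, at 102 and 33.8. The chains of collagen I, Col1a1 and Col1a2, measured 2556 and 1496 FPKM at day 0 and 1121 and 517 at day 2, while Col6a1, Col6a2 and Col6a3 of collagen VI lay within 2-fold, with Col6a1 at 363 and 628. Col6a5, a further chain of that family, was lower, at 6.26 and 0.328 FPKM.

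The proteases and inhibitors that act on this matrix differed in 34 of 54 compared genes, 15 higher and 19 lower. Higher were the ADAM-type proteases Adam12, at 2.58 FPKM at day 0 and 72.2 at day 2, Adamts12, at 6.22 and 71.5, and Adamts15, at 1.35 and 31.3. Lower were parts of the plasminogen system: the activators Plau and Plat were at 31.4 and 6.45 and at 72.1 and 17.8 FPKM, and the receptor Plaur at 7.53 and 1.202. Mmp14, a membrane-bound collagenase, was at 301 and 83.9 FPKM, and Mmp11 at 40.9 and 6.37.

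The Serpina3 cluster on chromosome 12 was the longest run of neighbouring higher genes in the tables, with 5 members in a row. These genes encode inhibitors of serine proteases of the acute-phase response. Serpina3n and Serpina3m had a listed value of 0 at day 0 and measured 136 and 23.3 FPKM at day 2, Serpina3g was at 5.997 and 116, Serpina3c at 0.0795 and 13.1, and Serpina3f at 0.0370 and 4.93. At day 7 Serpina3n was at 3.69 FPKM and Serpina3m at 0.478, whereas Serpina3c was at 11.3. The copies are close relatives and the authors' counting could have split reads between them, so the level of each is uncertain. The start regions of the most alike pair are shown. The stretches below are the 150 bases that end at the start of the gene, from RefSeq's GRCm38.p6 promoter table, at chr12:104406558-104406707 on the plus strand for Serpina3n and chr12:104153873-104154022 on the minus strand for Serpina3c. In the alignment of the whole upstream windows 229 of 247 aligned bases (92.7%) of this pair were identical, against 59.5% to 82.6% in the other pairs of Serpina3n, Serpina3c, Serpina3f and Serpina3g, whose alignments held more gaps.
Serpina3n: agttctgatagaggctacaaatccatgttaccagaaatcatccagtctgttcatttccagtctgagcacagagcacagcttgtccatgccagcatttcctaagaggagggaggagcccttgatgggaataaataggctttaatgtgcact
Serpina3c: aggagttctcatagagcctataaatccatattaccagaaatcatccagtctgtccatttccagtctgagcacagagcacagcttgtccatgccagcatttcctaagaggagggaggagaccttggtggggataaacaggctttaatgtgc

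Among the longest lower runs, also of 5 genes, was the Serpinb cluster on chromosome 13, whose products inhibit proteases inside cells. Serpinb6a was its most abundant member, at 116 FPKM at day 0 and 27.8 at day 2. Serpinb9, an inhibitor of granzyme B, was at 11.99 and 3.47 FPKM, and Serpinb1a at 3.799 and 0.314. In all, 15 runs of at least 3 neighbours were higher (50 genes) and 33 were lower (106 genes), among the 11082 genes placed in the order of the RefSeq table. Genes missing from the culture tables were passed over, so neighbours here need not adjoin in the genome. Lower genes were also more numerous than higher ones (10.7% against 6.18% of compared genes), and no background for runs was computed. Some runs hold relatives and others do not. Fabp4 and Fabp5, sister carriers of fatty acids, lay next to Pag1; the insulin adaptor Irs2 lay next to Col4a1 and Col4a2; and the protease Ctsc lay with Rab38, Tmem135 and Fzd4. Sepp1, a selenium transport protein, at 87.2 and 715 FPKM, was followed by Ccdc152 and by Ghr, the growth hormone receptor; the annotated spans of Ccdc152 and Sepp1 overlap, so reads of this pair may have been shared and the level of Ccdc152 is uncertain.

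Acute-phase and complement genes differed in 22 of 32 compared, 12 higher and 10 lower. Among the higher genes, Hp (haptoglobin) had a listed value of 0 at day 0 and measured 15.3 FPKM at day 2, the complement factor C3 was at 0.168 and 25.4, Lrg1 at 0.0381 and 9.12, and Saa3, a serum amyloid, at 0.161 and 11.2. At day 7 C3 was at 258 FPKM and Saa3 at 0.970. Lower were Masp1, a protease of the lectin pathway, at 23.6 and 3.27 FPKM, and Procr, the receptor of protein C, at 7.72 and 0.356.

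Guanylate-binding proteins and immunity-related GTPases are induced by interferon-gamma and attack the vacuoles of intracellular pathogens. Of 8 such genes compared 7 were lower, with a median of -1.07. Irgm1 stood at 55.2 FPKM on day 0 and 7.05 on day 2, Igtp at 12.2 and 2.33, and Irgm2 at 10.5 and 2.297. Tgtp2 was at 1.09 and 0.0340 FPKM, Gbp2 at 4.95 and 1.87, Gbp3 at 6.01 and 2.37, and Iigp1 at 2.87 and 0.832. Day 0 was the highest of the 4 times for Irgm1, Igtp and Irgm2; at day -3 Igtp was at 0.457 FPKM and Irgm2 at 0.325. Cd74, a leukocyte marker that interferon-gamma also induces, was at 3.21 and 0.458 FPKM, and the part of leukocytes in these values was not tested.

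These GTPase genes were lower together, and their start regions were searched for the interferon-stimulated response element, searched as GAAA boxes with any 2 bases between them, on both strands of the 250 bases before and 50 after each start. The letters were counted per gene that has a window, with a match in any of its windows. They stood in all 6 of the lower members that have a window, in 5.86% of all lower genes and 3.37% of higher genes. Among all compared genes the share was 3.60%. Counted by window, 3.44% of all windows in the table held the letters. A match is a description of letters, not a measured site. The stretches below, from RefSeq's GRCm38.p6 table, each have 120 bases; capitals mark the element, in the sense or the reverse direction, and overlapping matches run together. They lie at chr11:48871421-48871540 (minus strand, Irgm1), chr11:58199436-58199555 (plus, Igtp), chr11:58214857-58214976 (plus, Irgm2), chr11:49064213-49064332 (minus, Tgtp2) and chr3:142559924-142560043 (plus, Gbp3). Isg15, the ubiquitin-like interferon target, at chr4:156200819-156200938 (minus), is shown for comparison, since it holds 3 overlapping matches.
Irgm1: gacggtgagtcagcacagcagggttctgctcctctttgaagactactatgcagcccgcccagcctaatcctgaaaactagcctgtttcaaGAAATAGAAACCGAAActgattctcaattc
Igtp: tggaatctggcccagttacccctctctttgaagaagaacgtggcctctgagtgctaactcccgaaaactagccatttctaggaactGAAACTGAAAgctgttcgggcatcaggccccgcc
Irgm2: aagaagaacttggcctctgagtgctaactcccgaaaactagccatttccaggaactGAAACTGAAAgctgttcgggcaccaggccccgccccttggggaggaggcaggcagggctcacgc
Tgtp2: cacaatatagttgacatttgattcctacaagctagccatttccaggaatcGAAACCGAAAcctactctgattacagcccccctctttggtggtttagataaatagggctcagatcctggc
Gbp3: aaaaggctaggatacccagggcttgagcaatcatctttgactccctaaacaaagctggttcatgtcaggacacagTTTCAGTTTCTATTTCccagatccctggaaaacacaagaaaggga
Isg15: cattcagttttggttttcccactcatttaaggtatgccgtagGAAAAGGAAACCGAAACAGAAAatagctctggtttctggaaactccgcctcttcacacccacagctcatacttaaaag

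Many genes of the cytoskeleton were lower. Of 68 actin regulators and focal adhesion genes 26 were lower and 4 higher, with a median of -0.79, and their summed level went from 8251 to 4828 FPKM. Actb, beta-actin, stood at 2268 FPKM on day 0 and 979 on day 2, after 5426 at day -3. Tmsb4x, the thymosin that holds free actin, was at 338 and 72.05 FPKM, Flnc, a filamin, at 75.1 and 14.00, and Tgfb1i1 (HIC-5), a focal adhesion protein, at 45.9 and 6.35. The 4 higher genes were Gsn (gelsolin), which severs actin filaments, at 174 and 584 FPKM, Limk2, a kinase of cofilin, at 28.9 and 77.9, Diap2, a formin, at 4.85 and 12.4, and Svil, supervillin, at 20.6 and 44.7. Of 21 myosin genes 9 were lower and none higher, Myl9, a regulatory light chain, at 128 and 33.1 FPKM. Of 39 small GTPase regulators named Arhgap or Arhgef 11 were lower and 2 higher.

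Of 35 microtubule genes 9 were lower and none higher. The tubulins Tuba1a, Tubb2a and Tubb3 measured 217, 34.7 and 13.7 FPKM at day 0 and 34.3, 4.05 and 0.780 at day 2. Tubb3 is also a marker of nerve, and the part of nerve cells in this value was not tested. Of 18 annexins and S100 proteins, which bind calcium at the cell cortex, 8 were lower and none higher, with a median of -0.92: S100a6 was at 1788 and 314 FPKM, S100a4 at 197 and 20.6, and Anxa3 at 67.6 and 7.62. The largest single loss of level was that of Lgals1 (galectin 1), a secreted lectin, at 3129.7 and 498 FPKM.

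Of 15 intermediate filament, keratin and cornified envelope genes 8 were lower and 1 higher, with a median of -1.02. The small proline-rich proteins, known from the skin barrier, were nearly absent at day 2: Sprr1a measured 91.9 FPKM at day -3, 75.1 at day 0 and 0.258 at day 2, and Sprr2k at 94.5, 5.26 and 0.0335. Krt19, the only epithelial marker compared, was at 13.8 and 0.697 FPKM, and the part of epithelial cells in these values was not tested. The start regions of both Sprr genes hold paired AP-1 letters, TGANTCA, a site of the FOS and JUN factors. Such letters, whether paired or single, were counted per gene that has a window, with a match in any of its windows. They stood in 9.33% of higher genes, 10.7% of lower genes and 5.98% of all compared genes. Counted by window, 7.81% of all windows held them. The stretches shown, with these letters in capitals, lie at chr3:92485882-92486041 (minus strand, Sprr1a) and chr3:92432372-92432581 (plus, Sprr2k).
Sprr1a: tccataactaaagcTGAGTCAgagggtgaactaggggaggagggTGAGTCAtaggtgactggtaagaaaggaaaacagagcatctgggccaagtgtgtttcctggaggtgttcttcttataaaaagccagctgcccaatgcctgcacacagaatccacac
Sprr2k: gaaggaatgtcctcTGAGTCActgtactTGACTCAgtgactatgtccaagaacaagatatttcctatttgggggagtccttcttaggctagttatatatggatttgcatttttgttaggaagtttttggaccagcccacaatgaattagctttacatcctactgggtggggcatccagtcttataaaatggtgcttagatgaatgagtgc

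Several large groups differed little. None of 45 translation factor and aminoacyl-tRNA synthetase genes and none of 39 proteasome subunit genes differed by 2-fold. Of 43 splicing genes 1 was higher and 1 lower. Of 50 lysosome and autophagy genes 3 were higher and 3 lower, and of 39 endoplasmic reticulum chaperone and stress genes 2 and 1. The shares higher in these last 2 lists, 6% and 5.13%, were near the 6.18% over all compared genes. Their shares lower, 6% and 2.56%, were below the 10.7% over all compared genes. Of 50 genes for entry into S phase and replication licensing only Ccnd1 (cyclin D1) differed, at 69.7 FPKM at day -3, 20.6 at day 0 and 1.38 at day 2. Of 78 chromatin modifiers outside the complexes profiled in the series 5 were lower and 1 higher: Hdac7, a class IIa deacetylase, was at 139.6 and 42.1 FPKM, Chd3 at 80.9 and 20.95, and Hmga2, a chromatin protein of proliferating cells, at 14.2 and 3.46. Of 74 mitochondrial ribosomal protein genes 1 was higher and 1 lower, Mrpl54, at 45.8 and 17.1 FPKM, and of 39 complex I subunits 2 were higher and none lower. These shares are below the background, while the medians were 0.48 and 0.53.

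Ion channels and pumps and imprinted genes held a few large differences. Of 35 channel and pump genes 7 were higher and 9 lower. The potassium channel Kcnk3 stood at 0.0585 FPKM on day 0 and 13.6 on day 2, the calcium pump Atp2a3 at 0.182 and 14.1, and the water channel Aqp1 at 1.95 and 16.4. Fxyd5, a modulator of the sodium pump, was lower, at 13.6 and 0.634 FPKM. Of 20 imprinted genes 4 were higher and 2 lower. The lower ones were Dcn, at 44.08 and 17.5 FPKM, and Ndn, at 6.396 and 2.47. The higher ones were Igf2, Plagl1, Mest and Peg10. Plagl1 was at 21.6 and 92.04 FPKM, Mest, a marker of fat expansion, at 7.42 and 24.9, and Peg10 at 30.1 and 138. At day 7 these were at 9.23, 2.02 and 13.7 FPKM.

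The libraries of day -3 and day 7 share no sample with those of day 0 and day 2. The span from day -3 to day 7 holds the step from day 0 to day 2 within it, along with the days before and after. It is therefore no replicate of that step and does not set it apart. Between day -3 and day 7, 20.3% of 10828 compared genes were higher at day 7 and 14.7% lower. Of the 616 genes higher at day 2 that could be compared there, 402 (65.3%) were at least 2-fold higher at day 7 than at day -3 and 13 (2.11%) were lower. Of the 1063 lower genes, 533 (50.1%) were lower and 104 (9.78%) higher. Over all genes compared at both pairs the shares were 18.9% higher and 14.8% lower. Taken from the other side, these genes were 18.3% of all that were higher and 33.4% of all that were lower at day 7. 

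The 13 genes that were higher at day 2 yet lower at day 7 than at day -3 included Peg10, the PACAP receptor Adcyap1r1, at 46.2 FPKM at day -3 and 11.99 at day 7, Cyp1b1, a cytochrome P450 of steroids and retinoids, at 75.9 and 19.7, and Id1, at 73.5 and 23.3. The 104 of the opposite kind included Scd2, a fatty acid desaturase, and the glycolytic genes Gpi1 and Tpi1. Scd2 was at 126, 399, 121 and 1110.5 FPKM at days -3, 0, 2 and 7, Gpi1 at 195, 195, 79.1 and 1047, and Egr1 at 36.6, 85.8, 28.1 and 88.98. For each of these 3, day 2 was the lowest of the 4 times.

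**Figure D5:**
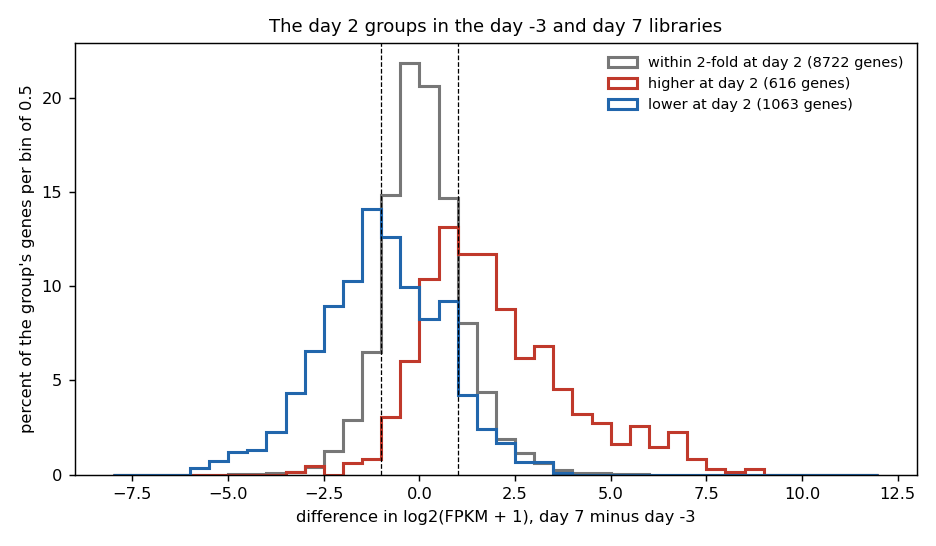
Distribution of the difference in log2(FPKM + 1) between day 7 and day -3, which share no library with days 0 and 2, for genes higher, lower or within 2-fold at day 2; the vertical axis is the percent of each group's genes per bin of 0.5, and dashed lines mark 2-fold. The group higher at day 2 (616 genes) lies to the right, with 65.3% past 2-fold upwards, and the group lower at day 2 (1063 genes) to the left, with 50.1% past 2-fold downwards.

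The tissue gave levels of the same genes in vivo, in RPKM (reads scaled in the same way). The genes higher at day 2 had a median of 9.41 RPKM in brown fat, those lower 1.41, those within 2-fold 5.21 and all compared 4.99. Brown fat of an adult holds vessels, nerves and blood cells besides adipocytes, and its values were normalized apart from those of the culture. Igfbp2, at 133 FPKM at day 2, was listed at 0 in the tissue, as were Agtr2, Saa3 and Fam107a. Rpl21, a ribosomal protein gene that every cell uses, was also listed at 0 there, so a listed 0 cannot be read as low expression. Agt was at 241 FPKM in the cells at day 2, 59.6 at day 7 and 0.508 RPKM in the tissue.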

How the data were processed

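Messenger RNA was purified from total RNA, per the labels' protocols, and each time or tissue has 1 library. Culture values are the FPKM per gene symbol that the authors deposited. Tissue values come from the RPKM per RefSeq transcript that the authors deposited. For each gene the largest value over its transcripts was taken, and transcripts that matched more than 1 gene were left out. The submitters' processing notes name CASAVA 1.8.2, TopHat2 2.0.10 and Cufflinks 1.0.3 as tools and mm9 as the build, without saying which tool served which table. No read counts could be recovered, so depth is unknown and no interval is given. FPKM are relative to the library total, so a gain by some genes lowers the others.

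The tables were joined by symbol and used without rescaling, with Python 3.11.15, pandas 2.3.3 and numpy 2.4.6 (figures: matplotlib 3.10.9). Differences are of log2(FPKM + 1), which understates those of low genes. Lists hold 47 pathways or classes, 9 cell types and 34 symbol families, and counts cover only their compared members. Tissue transcripts, gene order and promoter windows came from RefSeq tables of GRCm38.p6; 11085 culture genes matched and 11001 had a tissue value. Alternatives were a pseudocount of 0.1 or 5, a minimum of 5 FPKM or none, a common total, median-ratio scaling and a 4-fold rule.

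The members, lists and rules were chosen with earlier results of these data known. Named are the 15 genes with the largest difference each way at 10 FPKM or more, the 12 largest gains and losses, the 10 most abundant genes of each library, up to 4 members each way per list or family, all members of the inducer and marker lists, genes in runs of neighbours and genes at the edges of the rules. Some genes that this rule took are not reported here. The following were named after their values were seen: Adamts12, Adamts15, Adcyap1r1, Adora1, Alas1, Angpt1, Axl, Bcat2, Col6a1, Col6a2, Csad, F2r, Fbn1, Fgf10, Fgfr1, Flnc, Gbp2, Gbp3, Gpi1, Id3, Isg15, Lama5, Lamc1, Lnpep, Mc2r, Mmp14, Mut, Nid2, Npr1, Pex11a, Plat, Plaur, Rbp4, Ren1, Runx2, Scd2, Smad7, Srebf1, Taldo1, Tfrc, Tgfb1, Tmsb4x, Vldlr and Wisp1.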

Additional observations from a re-analysis of the deposited data

How the results depend on the processing

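No paired analysis was possible because each time has 1 library and the labels give no replicate numbers shared between times. The counts of 662 higher and 1146 lower genes stood within 1.5 times of these values without a level filter, with a minimum of 5 FPKM (563 and 860), with a pseudocount of 0.1 (807 and 1506), after rescaling to a common total (691 and 1125) and after median-ratio scaling (654 and 1160). They did not with a pseudocount of 5, which gave 383 higher and 532 lower, nor with a 4-fold rule, which gave 213 and 201. Under those settings the genes with the same direction between day -3 and day 7 numbered 233 higher and 251 lower, and 132 higher and 90 lower, in place of 402 and 533. A pseudocount shrinks the differences of genes with low values, and a 4-fold rule counts fewer genes by construction. The share of differing genes that were lower was 63.4% as reported, 58.1% with a pseudocount of 5 and 48.6% at 4-fold. No gene that the naming rule took passed from higher to lower, or from lower to higher, under these alternatives. Of 679 genes that the naming rule took, 198 came within 2-fold with a pseudocount of 5.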
